A study of Mus musculus with 5 samples.

Results

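A set of 10 genes of the circadian clock was followed in single-nucleus RNA sequencing data of the mouse central amygdala (CeA), in fed and in fasted mice. The genes were taken by name as a list, with no threshold on a value, and all 10 were among the 22532 genes counted. They were the period genes Per1, Per2 and Per3, the output gene Dbp, the repressor genes Ciart, Nr1d1, Nr1d2 and Cry1, and the activator genes Arntl (also called Bmal1) and Clock. Each library held the dissected CeA of a male and a female brain, processed in parallel, so a library is the replicate. Fed replicates 1 and 2 came from mice aged 8 weeks, and fasted replicates 1 and 2 from mice of the same age without food for 20 and 21 hours. All 5 libraries are labelled C57BL6, and the methods give C57BL/6NRj as the wild-type strain. Fed replicate 3 came from Htr2a-Cre transgenic mice, backcrossed to C57BL/6N and aged 12 weeks, that carried AAV-DIO-mCherry, a virus that labels Cre-expressing cells. From the batches of the study's supplement, replicates 1 were taken as 1 batch of preparation, replicates 2 as another, and fed replicate 3 as prepared by itself. This match by replicate number is an assumption. The hour of day at which tissue was taken is not given in the sources used here, so feeding state and clock phase cannot be told apart.

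The clock runs as a loop of transcription in nearly every cell. The proteins of Arntl and Clock pair and bind E-box motifs of the Per, Cry, Nr1d and Dbp genes. The Per and Cry products repress that pair, and those of Nr1d1 and Nr1d2 repress Arntl. In nocturnal mice the mRNAs of Per1, Per2, Per3, Dbp, Ciart, Nr1d1 and Nr1d2 and those of Arntl, Clock and Cry1 commonly peak in opposite parts of the day, although feeding times can shift the clock outside the hypothalamic pacemaker.

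Of 23839 barcodes, 7161 nuclei with 500 to 8000 detected genes and less than 0.8% mitochondrial UMIs (unique molecular identifiers, each standing for 1 captured RNA molecule) were kept, 1130 to 1734 per library. Only 3 barcodes were shared over all pairs of libraries. Nuclei were sorted by marker genes and their UMIs were summed per library. Inhibitory neurons, with a UMI of Gad1 or Gad2, numbered 777 to 1323 per library and held 8433656 to 26147228 UMIs. Astrocyte-like nuclei numbered 54 to 143 (171500 to 816992 UMIs) and oligodendrocyte-like nuclei 18 to 58 (48598 to 255584 UMIs). Of 13 neuron classes gated by their own marker genes, 8 had at least 10 nuclei in every library. The study places neurons marked by Pde1c, Rarb and Foxp2 outside the CeA, in the IPAC (an interstitial nucleus beside the anterior commissure), the amygdalostriatal area and the intercalated cells. These 3 classes held 199 (Pde1c), 867 (Rarb) and 278 (Foxp2) of 5499 inhibitory nuclei. They were kept in the inhibitory sum and are described beside the 5 classes of the CeA. The sum also held 397 to 722 inhibitory nuclei per library that entered no gated class. Whether these lay in the CeA was not determined. The median per nucleus ran from 6608 UMIs in fasted replicate 1 to 16367 in fasted replicate 2. All 12 astrocyte markers were detected in the astrocyte-like and all 12 oligodendrocyte markers in the oligodendrocyte-like nuclei of every library. The gates used these same markers, so this is no separate support for the classes. The inhibitory sums also held UMIs of all 12 of each list in every library. The inhibitory markers Gad1, Gad2 and Slc32a1 together reached 111 to 228 CPM (UMIs of a gene per 1000000 UMIs of the class in that library) in astrocyte-like and 124 to 222 in oligodendrocyte-like nuclei, against 442 to 499 in inhibitory neurons, so the glial sums held these neuronal RNAs too. Their part in the results below was not tested.

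In inhibitory neurons 0 of the 10 clock genes passed the test between fed and fasted mice, at an adjusted p of 0.05 in edgeR's quasi-likelihood test over 13404 genes. The test called 1 of these genes, or 0.00746%. Among the 10 clock genes the adjusted p ran from 0.799 to 1, and 1 gene, Ciart, was under 0.05 before adjustment, against 724 (5.40%) of all genes tested. With the preparation batch as a block the test called 440 genes, and 0 of these were clock genes. The likelihood ratio test and DESeq2 also called 0 clock genes. The median log2 difference of the 10 (fasted minus fed) was 0.01, beside -0.006 over all genes tested. All levels below are CPM. These are sums over nuclei, in which fewer nuclei holding an RNA and less of it per nucleus cannot be told apart.

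Ciart (also called Chrono) encodes a repressor of the Arntl and Clock pair. The fed libraries, in the order of their replicate numbers, had levels of 4.15, 3.99 and 4.25, and the fasted libraries 5.79 and 6.27. Both fasted libraries thus lay above all 3 fed libraries. The difference was 0.53 ± 0.20 on the log2 scale (SE), a fold of 1.44 with a 95% interval of 1.05 to 1.98, and an adjusted p of 0.799 in edgeR (0.292 to 1 over the alternatives). With the batch as a block it was 0.55 (adjusted p = 0.292 in edgeR). Within the batches it was 0.47 for replicates 1 and 0.65 for replicates 2. These levels rested on 35 to 164 Ciart UMIs per library.

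Per3, the period gene that is least needed for rhythms, was at 48.7, 55.3 and 48.5 in the fed and at 63.8 and 60.8 in the fasted libraries. The groups did not overlap here either. The log2 difference was 0.28 ± 0.13 (SE), a fold of 1.21 with a 95% interval of 0.988 to 1.48 (edgeR adjusted p = 0.974; with the batch as a block 0.23, adjusted p = 0.281). Within batches it was 0.39 for replicates 1 and 0.14 for replicates 2. Ciart and Per3 were the 2 of 10 clock genes without overlap, while the groups did not overlap in 17.8% of all genes tested. In the same neurons the 13 mitochondrial genes summed to 972 to 1626 CPM in fed and 2243 to 3148 in fasted libraries, the 12 astrocyte markers to 320 to 375 and 401 to 485, and the 12 oligodendrocyte markers to 138 to 177 and 212 to 235. Their part in these differences was not tested.

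The sequence just before the canonical transcript start of Ciart and Per3 is given because these were the 2 clock genes whose fed and fasted neurons did not overlap. That of Per2 is given because it shared with Per3 a motif and a high level in astrocyte-like nuclei. The annotated Ciart gene extends upstream to chr3:95789991, so its stretch lies inside the gene, between exons of longer transcripts. Windows of 250 bases before the canonical transcript start were read from GRCm39 with the GENCODE M39 annotation, and the longest stretch of each outside the exons of its gene is printed (chr3:95789564-95789644, chr4:151129141-151129390 and chr1:91387070-91387296, all on the minus strand). Each is written 5′ to 3′ on the strand of its gene, with capitals for the E-box CACGTG, which the Arntl and Clock pair binds, or the D-box TTANGTAA, which the Dbp protein binds.
Ciart: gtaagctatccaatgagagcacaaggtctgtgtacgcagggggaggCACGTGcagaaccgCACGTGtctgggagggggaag
Per3: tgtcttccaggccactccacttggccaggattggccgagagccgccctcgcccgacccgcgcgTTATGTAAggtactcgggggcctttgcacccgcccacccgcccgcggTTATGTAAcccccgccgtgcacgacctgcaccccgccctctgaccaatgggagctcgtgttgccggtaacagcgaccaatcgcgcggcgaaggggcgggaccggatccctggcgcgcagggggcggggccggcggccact
Per2: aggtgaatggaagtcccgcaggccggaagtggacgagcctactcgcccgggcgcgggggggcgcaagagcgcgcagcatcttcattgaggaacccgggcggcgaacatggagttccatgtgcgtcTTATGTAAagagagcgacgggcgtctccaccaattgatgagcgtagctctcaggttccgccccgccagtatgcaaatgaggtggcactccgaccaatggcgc
The whole window of Ciart held 3 copies of the E-box, beginning 100, 42 and 28 bases before the start, and the stretch above shows the last 2 of them. Per3 held 2 D-boxes, at 187 and 140 bases, and Per2 held 1, at 125 bases. Over the 10 clock genes, 3 windows held an E-box (Ciart, Cry1 and Per1), 2 the related CACGTT (Cry1 and Nr1d1), 2 the D-box (Per2 and Per3), 1 the Nr1d and Ror core site TAGGTCA (Dbp) and 0 the cAMP response element TGACGTCA. Searched on both strands in windows of the same length, these motifs stood in this order before 6.26%, 4.16%, 2.07%, 2.16% and 1.70% of 21757 protein-coding genes. None of these motifs was found in the windows of Arntl, Clock or Nr1d2.

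Per1 and Per2, the period genes that are also induced acutely by cAMP signals, varied between libraries of the same group. Per1 was at 26.3, 23.9 and 41.2 in the fed and at 38.6 and 26.9 in the fasted libraries. The high values were in fed replicate 3 and fasted replicate 1, which share neither group nor, as taken here, batch. Its log2 difference was 0.07 ± 0.26 (SE; 95% interval of the fold 0.694 to 1.59), but this value depended on the libraries. It was 0.36 without fed replicate 3 or without fasted replicate 2, -0.25 without fasted replicate 1, -0.02 without fed replicate 1 and -0.08 without fed replicate 2. Within batches it was 0.55 for replicates 1 and 0.17 for replicates 2, and with the batch as a block 0.32 (adjusted p = 0.162 in edgeR). Per2 was at 27.5, 31.2 and 44.2 in the fed and at 29.0 and 30.4 in the fasted libraries. Fed replicate 3 was again the highest, and without it the log2 difference of -0.235 ± 0.199 (SE) became -0.009. Across the 8 neuron classes, fed replicate 3 had the highest Per1 in 4 and the highest Per2 in 4. Its counts for the other genes were 5 for Nr1d2, 3 for Nr1d1, Arntl and Cry1, 2 for Dbp and 0 for Per3, Ciart and Clock. The share over all genes is not given. Fed replicate 3 differs from the others in genotype, virus, age and, as taken here, batch. It also held no inhibitory or glial nuclei between 500 and 1500 genes, unlike every other library. Its astrocyte-like nuclei numbered 80 at either limit, beside 54 and 25 in fed replicate 1. These differences cannot be told apart. With at least 1500 genes per nucleus in all libraries, the log2 differences in inhibitory neurons were 0.074 for Per1 and -0.236 for Per2.

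Dbp, an output gene whose protein binds D-boxes, was at 14.9, 19.9 and 23.2 in the fed and at 22.1 and 17.6 in the fasted libraries, with a log2 difference of 0.00 ± 0.21 (SE). The fasted values lay within the fed range. Nr1d1 and Nr1d2 encode the Rev-erb receptors, which repress Arntl. Nr1d1 was at 8.66, 7.23 and 9.18 in the fed and at 5.69 and 9.37 in the fasted libraries, so that its lowest and highest values were both in fasted mice (log2 difference -0.14 ± 0.23, SE). Nr1d2 varied little, from 57.2 to 66.4 over the 5 libraries, and its fold of 1.02 had a 95% interval of 0.846 to 1.23.

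Among the genes of the opposite phase, Arntl was at 114, 107 and 124 in the fed and at 112 and 94.5 in the fasted libraries. Clock, its partner, was at 104, 134 and 109, and at 115 and 139. The order of the libraries differed between the partners, and fasted replicate 2 had the lowest Arntl and the highest Clock. Their folds were 0.888 (95% interval 0.714 to 1.11) and 1.09 (0.862 to 1.37). Cry1, the repressor that acts late in the cycle, was at 16.8, 15.7 and 20.1 in the fed and at 16.7 and 15.2 in the fasted libraries, a fold of 0.891 (0.684 to 1.16). Apart from Ciart, whose interval lay above 1, the intervals held 1, and those of Per3, Dbp, Nr1d2, Arntl, Clock and Cry1 left out changes of more than 1.5-fold in either direction.

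**Figure D1:**
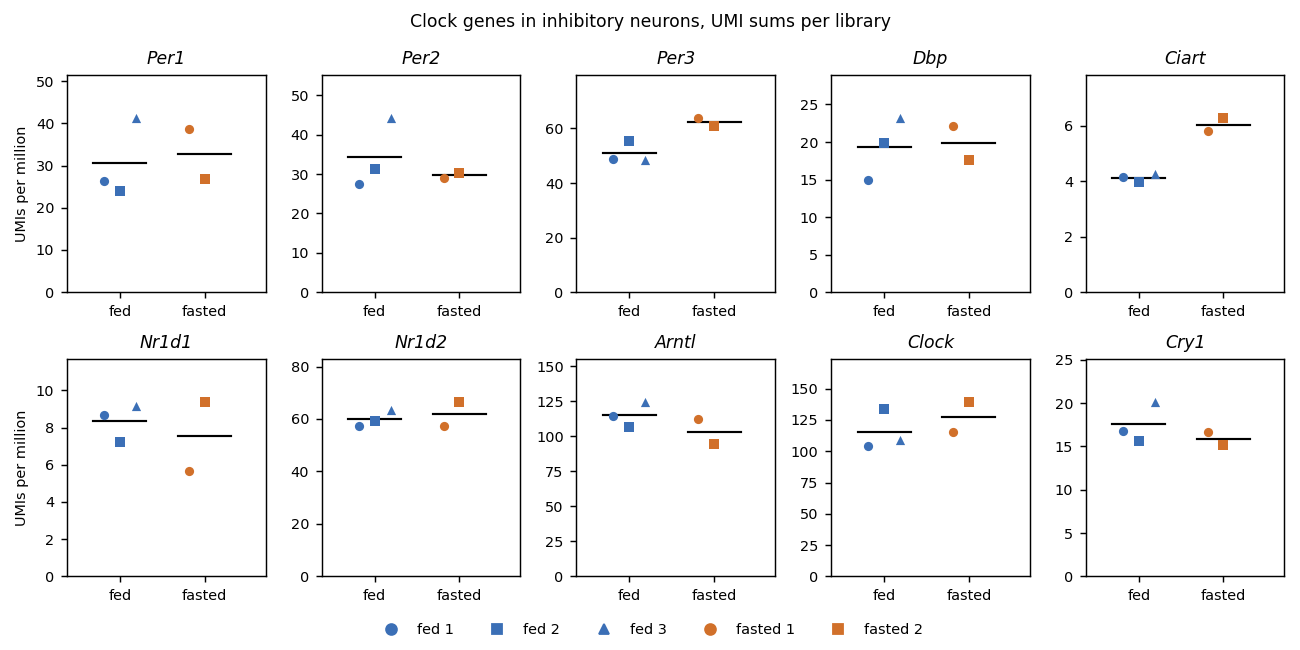
Level of each clock gene in inhibitory neurons, in CPM (vertical axes from 0), by feeding state; points are libraries (3 fed, 2 fasted), with shapes for replicate numbers, and bars are group means. Only the fed and fasted points of Ciart and Per3 do not overlap.

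The day-phase genes were set against the opposite-phase genes within each library, as the mean log2 level of Per1, Per2, Per3, Dbp, Ciart, Nr1d1 and Nr1d2 minus that of Arntl, Clock and Cry1. Its size depends on the lengths of the genes, so it is compared between libraries and not read by itself. In inhibitory neurons this difference was -1.58, -1.58 and -1.41 in the fed libraries and -1.41 and -1.34 in the fasted libraries. The means differed by 0.15 (fasted minus fed), and the fed libraries by up to 0.17 among themselves. Within batches the fasted library was higher by 0.17 and 0.24. In astrocyte-like nuclei the value ran from -1.57 in fed replicate 3 to 0.11 in fed replicate 1, with the fasted libraries at -0.14 and 0.04 between them. In the neuron classes the fasted mean was above the fed mean in Prkcd, Calcrl, Sst/Ebf1, Pde1c and Foxp2 neurons, below it in Dnah5/Vipr2 and Il1rapl2/Tafa1 neurons, and equal to it in Rarb neurons. The fed libraries of a class differed among themselves by 0.21 (Sst/Ebf1) to 1.51 (Prkcd). The difference of the means exceeded this range only in Calcrl (0.44 beside 0.28) and Foxp2 neurons (0.58 beside 0.52). In Calcrl neurons it came from fasted replicate 1 (-0.70), as fasted replicate 2 (-1.81) lay within the fed range (-1.84 to -1.57). Genes near 0 UMIs weigh as much as the others, as Ciart did in Prkcd neurons of fed replicate 1 (0 UMIs, value -2.905). Ciart also had 0 UMIs in Calcrl neurons of fed replicates 1 and 2. In astrocyte-like nuclei Ciart and Nr1d1 had 0 and 3 UMIs in fed replicate 3, and 1 and 9 in fed replicate 1. In Foxp2 neurons of fed replicate 1, Ciart and Nr1d1 both had 0. As a score over chosen genes, the day-phase minus opposite-phase value was not tested.

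**Figure D2:**
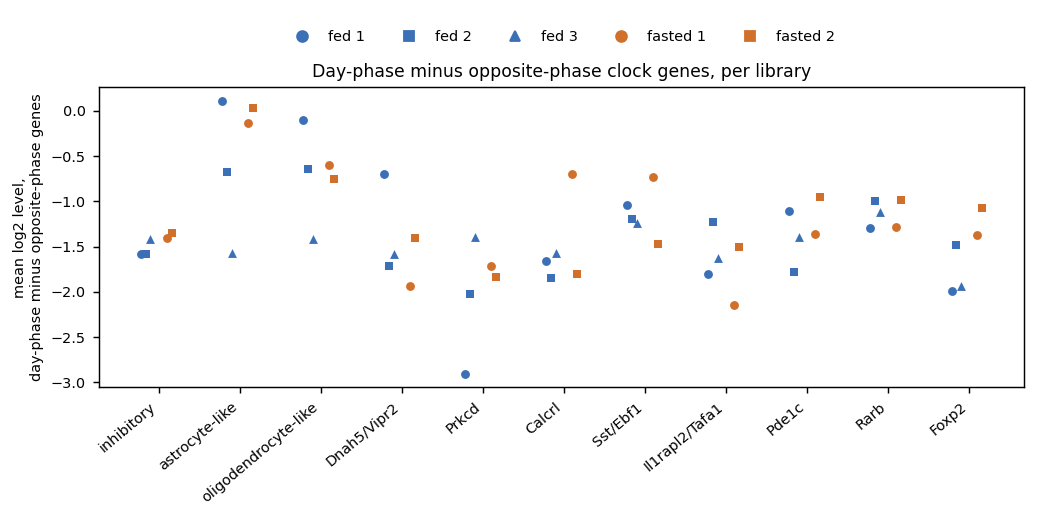
Mean log2 level of the 7 day-phase clock genes minus that of the 3 opposite-phase genes (vertical axis), for each class of nuclei (horizontal axis) and library (points; color for feeding state, shape for replicate number). In inhibitory neurons the 5 libraries lie between -1.58 and -1.34. In astrocyte-like nuclei the fed libraries alone span 1.68, with 0 Ciart UMIs in fed replicate 3.

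Of 21 further genes of the clock (Npas2, Cry2, the Ror receptors, casein kinases and others), 0 rose and 0 fell in inhibitory neurons, 13 having a positive and 8 a negative log2 difference (median 0.06). In astrocyte-like nuclei 14 could be tested and in oligodendrocyte-like nuclei 5, and again 0 passed. Per1 is also a known target of the glucocorticoid receptor, so 13 glucocorticoid-induced genes were counted beside it. Of these, 12 could be tested in inhibitory neurons, where 0 passed, 11 had a positive log2 difference, the median log2 difference was 0.72, and 8 of the 13 had fasted libraries above all fed libraries, beside the 17.8% of tested genes that did not overlap in either direction. Of 10 immediate-early genes, which neuronal activity induces, 9 could be tested, 0 passed, and 0 of the 10 separated the groups (median -0.11). Whether Per1 differed from the glucocorticoid list was not tested.

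In astrocyte-like nuclei 9 clock genes could be tested for fasting, and 0 passed in edgeR (adjusted p = 0.999 for each), as 0 of all 7185 genes did (0%). The unadjusted p was under 0.05 for 0 of the 9 and for 323 genes in all. DESeq2 called 0 clock genes of 18 genes, the likelihood ratio test 0 of 59, and the fit with the batch as a block 0 of 109. Nr1d1 had the largest difference. It was at 52.5, 25.0 and 5.76 in the fed and at 40.3 and 51.4 in the fasted libraries, and the fed libraries alone spanned the fasted values. Its log2 difference of 1.05 ± 0.61 (SE) had a 95% interval of 0.832-fold to 5.19-fold. It became 0.45 without fed replicate 3, 1.63 without fed replicate 1 and 0.46 with the batch as a block, and within batches it was -0.39 for replicates 1 and 0.99 for replicates 2. Ciart was at 5.83, 2.27 and 0 in the fed and at 4.03 and 20.8 in the fasted libraries, the last from 17 UMIs and the others from 0 or 1, and it was too low to be tested. No clock gene had fed and fasted libraries that did not overlap, against 18.5% of all genes tested.

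In oligodendrocyte-like nuclei Per3, Nr1d2 and Clock had enough UMIs to be tested, and 0 of the 3 passed (adjusted p = 0.999 in edgeR), as 0 of 3812 genes did (0%), with 181 of them under an unadjusted p of 0.05 and 0 of the 3. DESeq2 called 0 genes, and the likelihood ratio test called 37 genes and the fit with the batch as a block 8, of which 0 were clock genes. The intervals were wide, from 0.541-fold to 2.02-fold for Clock and from 0.22-fold to 3.02-fold for Per3. Cry1 alone had groups that did not overlap (19.6, 23.7 and 12.3 in the fed and 0 and 11.7 in the fasted libraries), with 0 to 5 UMIs per library, where 20.6% of the genes tested did not overlap.

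Whether fasting acted differently in glia and in inhibitory neurons was tested directly, as the interaction of class and feeding with the libraries as blocks. In edgeR 0 of the 10 clock genes passed for astrocyte-like nuclei and 0 of 10 for oligodendrocyte-like nuclei, and so did 0 of 11925 (0%) and 0 of 11455 genes (0%). Enough UMIs in either class let a gene enter. Ciart in astrocyte-like and all but Per3, Nr1d2 and Clock in oligodendrocyte-like nuclei entered through their neuronal UMIs. For these genes the test can decide little, with an SE of 1.97 for Nr1d1 in oligodendrocyte-like nuclei. Before adjustment 379 and 396 genes were under 0.05. Ciart was under it for astrocyte-like nuclei (log2 difference of the effects 2.51 ± 1.13, SE; adjusted p = 1 in edgeR), on the UMIs given above, 17 of them from fasted replicate 2. Across the other 9 genes these differences ran from -0.51 for Nr1d2 to 1.21 for Nr1d1 in astrocyte-like nuclei. With the sums thinned to equal depth they were 0.10 for Ciart and 0.23 for Nr1d1. That of Ciart was 0.64 without fasted replicate 2 and 1.64 without fed replicate 3, and that of Nr1d1 was 0.47 without fed replicate 3.

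**Figure D3:**
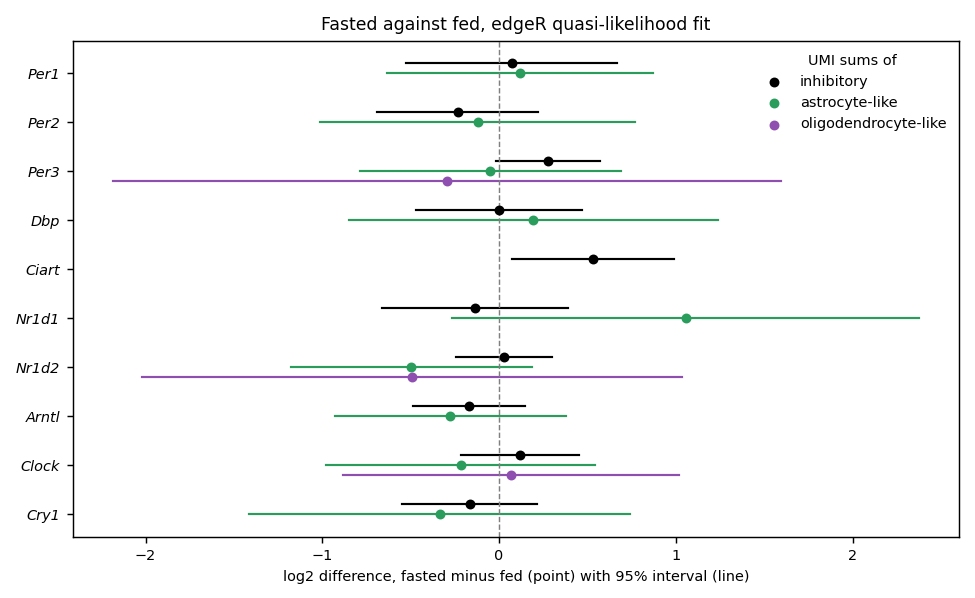
Log2 difference of each clock gene between fasted and fed libraries (points, horizontal axis) with 95% intervals (lines) from edgeR's quasi-likelihood fit, in inhibitory neurons, astrocyte-like and oligodendrocyte-like nuclei; genes too low to be tested in a class have no point. All intervals except that of Ciart in inhibitory neurons hold 0, and those of the glial classes are wider.

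In the 8 gated neuron classes 60 of the 80 combinations of gene and class could be tested for fasting, and 0 passed in edgeR (adjusted p from 0.51 to 1), against 78 calls over 58484 tests of all genes (0.133%). Before adjustment 3 of the 60 were under 0.05, beside 5.56% of all tests. DESeq2, the likelihood ratio test and the batch block also gave 0 calls for clock genes, among 76, 315 and 548 calls. The log2 differences were positive in 30 and negative in 30. The groups did not overlap in 11 of the 60 tested combinations, where they did not overlap in 19.6% of the tests of all genes, nor in 4 of those too low to be tested. Each class shares its libraries with the others, so the classes do not repeat one another as independent samples.

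The 3 combinations under 0.05 went in different directions. In Prkcd neurons, the protein kinase C delta cells of the lateral CeA, Arntl was at 199, 199 and 161 in the fed and at 130 and 142 in the fasted libraries, with no overlap (log2 difference -0.46 ± 0.19, SE; adjusted p = 0.510 in edgeR). In Foxp2 neurons Cry1 was at 14.9, 18.4 and 29.9 in the fed and at 9.74 and 8.71 in the fasted libraries, again with no overlap (-1.36 ± 0.52, SE; adjusted p = 1 in edgeR). In Calcrl neurons Per2 was at 17.6, 35.4 and 34.7 in the fed and at 76.7 and 39.5 in the fasted libraries (0.93 ± 0.45, SE; adjusted p = 0.714 in edgeR). All 3 were lower or higher in both fasted libraries than in each fed library.

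Per1 in Calcrl neurons showed how much 1 library could weigh. It was at 35.3, 27.5 and 45.4 in the fed and at 118 and 23.2 in the fasted libraries, so that the 2 fasted libraries held the highest and the lowest value. With all libraries the adjusted p was 0.799, and without fasted replicate 2 it was 0.0294 (edgeR). These neurons numbered 12 to 35 per library. Per3 had a positive difference in 8 of 8 classes (0.15 to 0.66), and in each of them a fasted library was the highest, without passing the test in any. In Rarb neurons the highest fasted and fed values were close (76.4 and 74.8), and within batches Per3 was at 0.66 and -0.15 there. Clock was positive in 7 of 8 (-0.04 to 0.34) and Arntl negative in 7 of 8 (-0.46 to 0.35), the exception being Dnah5/Vipr2 neurons. The share of all genes with such agreement of sign is not given, and the classes share their libraries.

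While 0 clock genes passed for fasting, several passed for their level in different kinds of nuclei. Against inhibitory neurons, with the libraries as blocks, 6 of the 10 genes differed in astrocyte-like nuclei in edgeR, 5 higher and 1 lower, where 44.8% of 11925 genes differed. In oligodendrocyte-like nuclei 1 of the 10 differed, where 32.9% of 11455 genes did. Differences in level between these kinds of nuclei were thus common among all genes.

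In astrocyte-like nuclei the period genes were higher in 5 of 5 libraries. Per2 was at 152, 97.8 and 53.8 in the fed and at 68.5 and 102 in the fasted libraries, each above the inhibitory neurons of that library, and its level was 2.61-fold that of the neurons (log2 difference 1.38 ± 0.23, SE; adjusted p = 0.000155 in edgeR). Per3 was at 216, 123 and 104, and at 121 and 149 (2.33-fold, adjusted p = 1.82e-05 in edgeR). Per1 was at 64.1, 47.7 and 46.1, and at 60.5 and 52.6 (1.62-fold, adjusted p = 0.00778 in edgeR). This fold is against the inhibitory neurons as a whole. The Per1 mean of 54.2 was close to those of Pde1c (52.2), Prkcd (50.5) and Calcrl neurons (49.9). The other gated classes were lower, down to 19.4 in Il1rapl2/Tafa1 neurons. The Rev-erb genes were higher too, Nr1d2 in 5 of 5 libraries (88.7 to 164, 1.89-fold, adjusted p = 0.000248 in edgeR) and Nr1d1 in 4 of 5 (3.70-fold, adjusted p = 0.000605 in edgeR). Fed replicate 3, with 3 Nr1d1 UMIs, was the exception.

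Clock was lower in astrocyte-like nuclei in 5 of 5 libraries, at 58.3, 100 and 94.1 in the fed and 56.4 and 89.4 in the fasted libraries (log2 difference -0.65 ± 0.16, SE; adjusted p = 0.0035 in edgeR). Its partner Arntl was at 94.3 to 144 in astrocyte-like nuclei and at 94.5 to 124 in inhibitory neurons, with a log2 difference of -0.03 and a 95% interval of -0.325 to 0.258. Dbp (log2 difference 0.32, interval -0.197 to 0.840), Ciart (0.49, -0.651 to 1.64) and Cry1 (0.42, -0.090 to 0.921) did not pass.

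In oligodendrocyte-like nuclei Arntl was at 0, 9.47 and 67.8 in the fed and at 20.6 and 23.5 in the fasted libraries, from 20 UMIs in all, and was lower than in the inhibitory neurons of every library. Its level in inhibitory neurons was 4.61-fold that in oligodendrocyte-like nuclei (log2 difference -2.20 ± 0.35, SE; adjusted p = 4.9e-09 in edgeR). The spread in this test was taken from all genes and does not measure how Arntl itself varied between libraries. Fed replicate 3 held 11 of these UMIs, and without it the difference was -2.91. Arntl was too low in these nuclei for the fasting test and entered this test through its neuronal UMIs. Clock was at 90.0 to 157 in the same nuclei, beside 104 to 139 in inhibitory neurons (log2 difference -0.25, 95% interval -0.775 to 0.276). The level of Arntl therefore differed from that of neurons where Clock's was not shown to. The other 8 genes rested on 0 to 16 UMIs per library and did not pass, and for Dbp, at 0 in 2 of the libraries, the adjusted p was 0.101 in edgeR.

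The neuron classes also differed among themselves. In an F test over the 8 classes with the libraries as blocks, 8 clock genes could be tested and 7 passed in edgeR (Per1, Per2, Per3, Dbp, Nr1d2, Arntl and Cry1), where 56.5% of 8412 genes passed. Arntl was highest in Sst/Ebf1 neurons (185 ± 26.2, SD, n = 5) and Prkcd neurons (166 ± 32.0), and lowest in Il1rapl2/Tafa1 neurons (68.1 ± 16.1; adjusted p = 3.28e-10 in edgeR). Cry1 was highest in Prkcd neurons (40.5 ± 9.51), followed by Dnah5/Vipr2 (28.0 ± 15.2) and Pde1c neurons (22.7 ± 3.54), and lowest in Il1rapl2/Tafa1 neurons (6.90 ± 3.11; adjusted p = 6.69e-07 in edgeR). The same Il1rapl2/Tafa1 neurons had the lowest mean of Per1, Per2, Dbp, Ciart and Nr1d1 as well. Per library they held 0 to 15 Dbp, 0 to 3 Ciart and 0 to 9 Nr1d1 UMIs, and 1 to 10 of Cry1. Ciart and Nr1d1 were too low for the F test.

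Other genes followed other orders. Per3 was lowest in Prkcd neurons (36.1 ± 4.64, SD, n = 5), which had the highest Cry1, and highest in Sst/Ebf1 neurons (67.3 ± 13.3; adjusted p = 9.18e-07 in edgeR). Dbp was highest in Sst/Ebf1 neurons (40.8 ± 21.8) and lowest in Il1rapl2/Tafa1 neurons (7.33 ± 5.95; adjusted p = 1.59e-06 in edgeR). Per2 was highest in Dnah5/Vipr2 neurons (59.2 ± 28.7) and Per1 in Pde1c neurons (52.2 ± 23.4). Nr1d2 ran from 46.0 ± 14.8 in Prkcd to 75.4 ± 12.9 in Foxp2 neurons (adjusted p = 0.00464 in edgeR). Clock did not pass, with means from 105.4 to 132 and an adjusted p of 0.593 in edgeR. In each of the 10 genes all 7 pairs of neighbours in the order of classes had overlapping ranges over the 5 libraries, while the highest class exceeded the lowest in 5 of 5 libraries for 8 genes and in 4 of 5 for Nr1d1 and Clock.

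**Figure D4:**
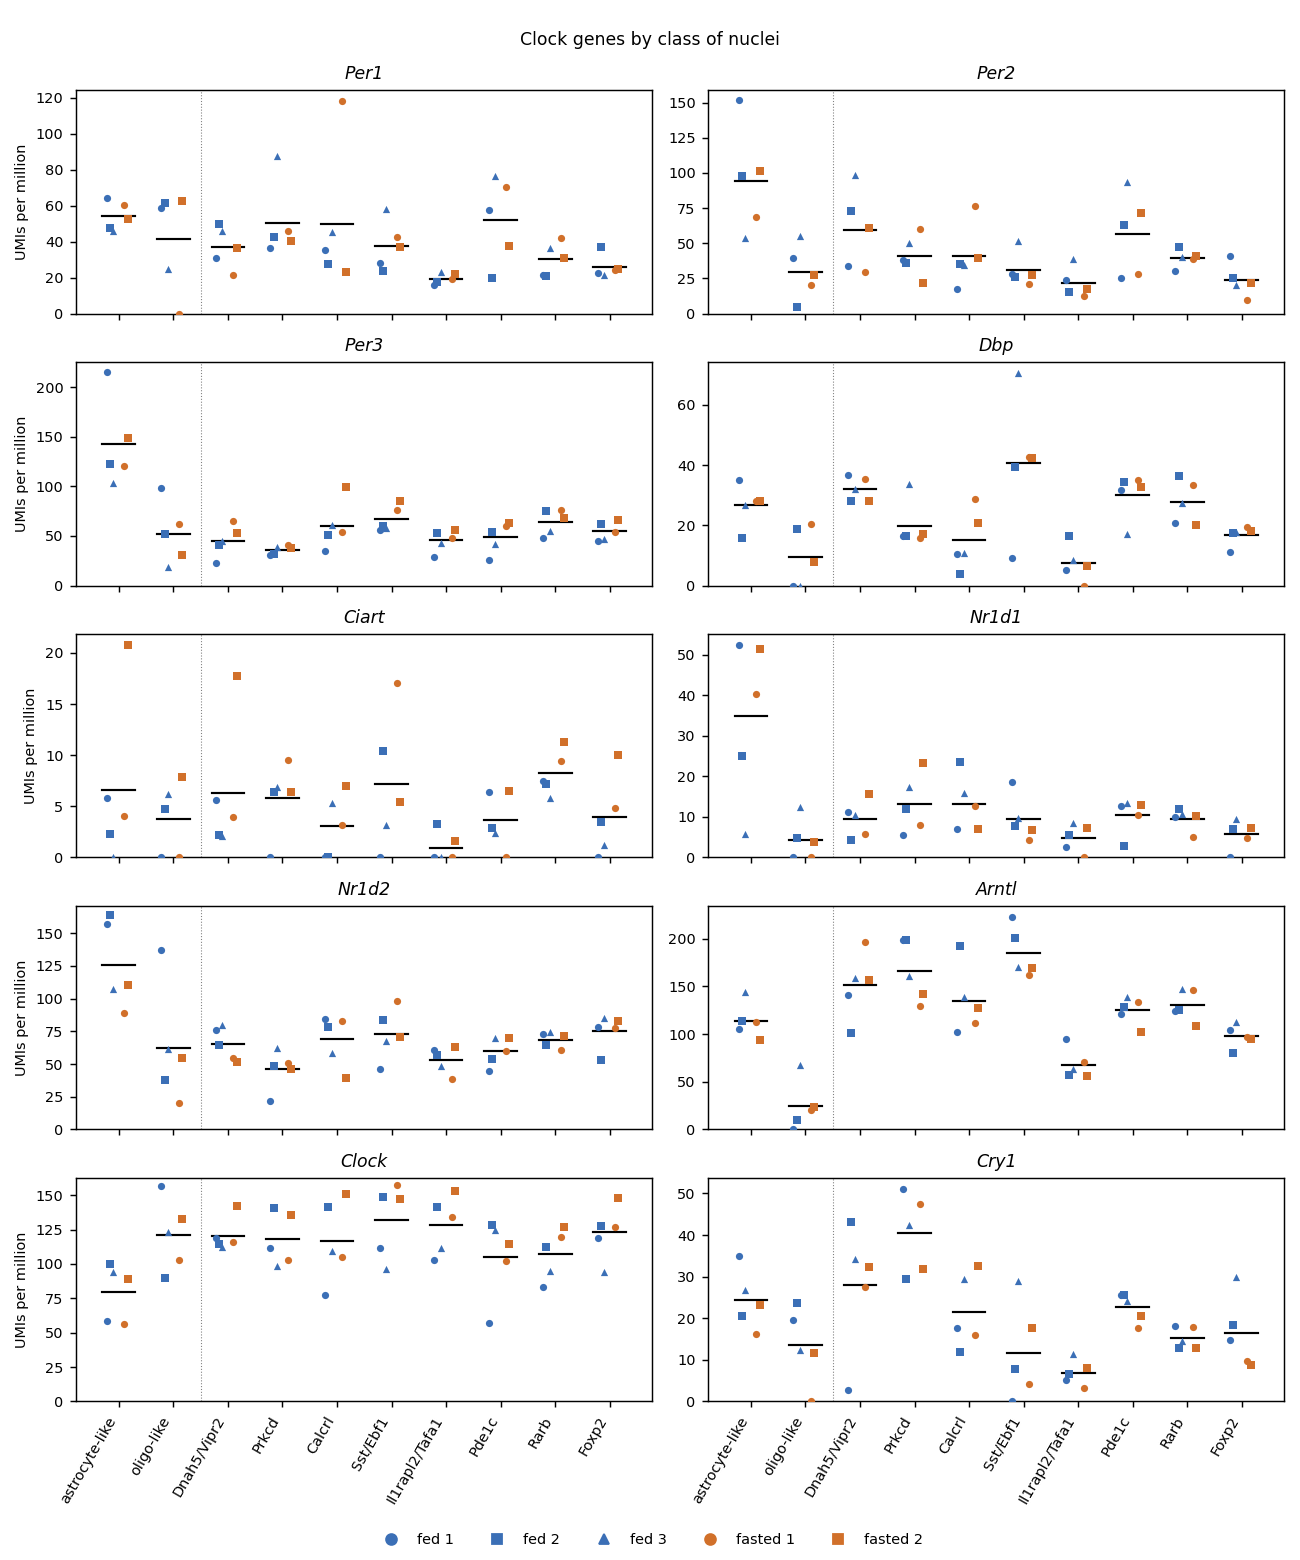
Level of each clock gene, in CPM (vertical axes from 0), in astrocyte-like and oligodendrocyte-like nuclei (left of the dotted line) and the 8 gated neuron classes; points are libraries (color for feeding state, shape for replicate number) and bars are means of 5 libraries. Arntl is lowest in oligodendrocyte-like nuclei (mean 24.3), and Per2, Per3, Nr1d1 and Nr1d2 are highest in astrocyte-like nuclei.

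The genes lie apart on the genome (GRCm39, GENCODE M39) and differ in length, from 4.2 kb for Ciart to 110.0 kb for Clock. Since intronic reads were counted, the level of a single gene was not compared with that of another. Nr1d1 (chr11:98658752-98666188, minus strand) overlaps Thra, Dbp (chr7:45354512-45359627, plus strand) overlaps Sphk2, Clock (chr5:76342860-76452846, minus strand) overlaps Tmem165, and Per3 (chr4:151081373-151129140, minus strand) overlaps Uts2, each on the opposite strand. The methods give default settings for Cell Ranger, which for this chemistry counts reads of the sense strand. The other 6 overlap no other gene of the files.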

How the data were processed

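Nuclei of the CeA were sequenced with 10x Chromium v3.1 3′ chemistry in 5 libraries. The authors aligned and counted the reads with Cell Ranger, with intronic reads included, on GRCm39 extended by Cre and mCherry; the file headers name version 5.0.0, and the submitters' processing notes name 2.1.1 and mm10. The deposited values are raw UMI counts per gene and barcode. No doublet caller was run, and inhibitory nuclei meeting several gates (6 to 23 per library) were left out of the gated classes.

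Nuclei were gated on UMIs per 10000. Astrocyte-like nuclei had at least 60 from 12 markers and oligodendrocyte-like nuclei at least 40, with 4 markers detected. Calcrl neurons were gated on Calcrl as their only marker, and had to stay under set levels of Prkcd, Rarb, and Dnah5 with Vipr2. The study found Prkcd neurons in its Calcrl cluster too, but nuclei high in both genes entered neither class here. Inhibitory neurons had at least 1 Gad1 or Gad2 UMI. They stayed under 30 from the astrocyte and under 20 from the oligodendrocyte markers. Nuclei with 5 or more from precursor or from microglial and endothelial markers, or 2 or more from excitatory markers, were left out, as was Lhfpl3 as a precursor marker, since neurons held it. The neuron classes Tac1, Rai14, Vdr, Dlk1 and Nkx2-1 had under 10 nuclei in a library and were not tested.

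Counts were summed per library and class and tested with edgeR 4.0.16 (R 4.3.3; quasi-likelihood test, TMM, filterByExpr, Benjamini-Hochberg adjustment over all genes tested, threshold 0.05). SEs are the log2 difference divided by the square root of F, and intervals use that SE. For log2 levels 0.5 counts were added. All 10 clock genes are named in every class, further clock genes only if they pass. The genes, lists and classes were chosen with earlier results of these data known, and the F test over neuron classes was added after its data were seen.

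The study's supplement pairs fed and fasted libraries by preparation batch, with a further fed library prepared alone. Its fed libraries are numbered otherwise than those here, so the match by replicate number is an assumption. Deviations of same-numbered libraries from their group means correlated at 0.331 and 0.511 across genes in inhibitory neurons, at 0.160 and 0.027 in astrocyte-like and at 0.087 and 0.089 in oligodendrocyte-like nuclei. Fed and fasted replicates 1 also had the lowest median depths, 8326 and 6608 UMIs per nucleus. The part of depth in these correlations was not tested. As in the study, the batch was not in the model. The mice of a library are 1 replicate. For fasting, p-values measure the spread between libraries of a group. In the tests between classes, where libraries are blocks, they measure how the class difference varies from library to library. edgeR estimates this spread with help from all genes, so a p-value does not rest on 1 gene's libraries alone. For the clock genes in the tests of oligodendrocyte-like nuclei against inhibitory neurons, the spread came wholly from all genes. There a p-value does not measure how 1 gene's difference varies between libraries. Results were recomputed with DESeq2 1.42.0, with the likelihood ratio test of edgeR, with no TMM factors, no filter, the batch as a block, each library left out, at least 1500 genes per nucleus, sums thinned to equal depth, the 5% largest nuclei left out and gates at double the level. The gated neuron classes were recomputed for fasting with DESeq2, the likelihood ratio test, the block and each library left out, and for level with the doubled gates, equal depth and each library left out. Tests between classes were recomputed with no filter, 1500 genes, equal depth, doubled gates and each library left out.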

Additional observations from a re-analysis of the deposited data

How the results depend on the processing

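The count of clock genes called for fasting was 0 under each alternative run in inhibitory, astrocyte-like and oligodendrocyte-like nuclei and in both tests of the difference between classes. In the neuron classes, where DESeq2, the likelihood ratio test, the replicate block and each library left out were run, it was 0 except without fasted replicate 2, where Per1 in Calcrl neurons passed (0 to 1 over the libraries left out). The counts over all genes depended on the test. In inhibitory neurons the 1 call became 128 with the likelihood ratio test, 72 with DESeq2, 86 with no filter and 440 with the replicate block, which leaves 1 residual degree of freedom, and 0 (without fed replicate 3) to 2 (without fed replicate 1) with a library left out. In astrocyte-like nuclei the 0 calls became 59, 18, 105 and 109 in the same order, 5 with the stricter gate and 0 to 38 (without fasted replicate 1) with a library left out. In oligodendrocyte-like nuclei they became 37 with the likelihood ratio test, 24 with no filter, 8 with the replicate block and 2 with the stricter gate. Over the neuron classes 78 calls became 315 with the likelihood ratio test, 548 with the replicate block and 9 (without fed replicate 3) to 255 (without fasted replicate 2) with a library left out, and 148 without fasted replicate 1. For the difference of the fasting effect, 0 calls became 12 with no filter, 1 at equal depth and 1 with the stricter gate in astrocyte-like nuclei (0 to 1 with a library left out, the 1 without fed replicate 2 or 3), and 1 with the stricter gate in oligodendrocyte-like nuclei. The causes of these shifts were not tested.

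For levels, the stricter gate added Cry1 in astrocyte-like nuclei (log2 difference 0.64, adjusted p = 0.0417 in edgeR), and having no filter raised the 1 clock gene of oligodendrocyte-like nuclei to 2 with Dbp (-1.44, adjusted p = 0.0436 in edgeR). Per2, Per3 and Nr1d1 in astrocyte-like nuclei and Arntl in oligodendrocyte-like nuclei passed in each fit that left out a library. Among the neuron classes 7 clock genes passed with the stricter gate, at equal depth and with each library left out, except for 8 without fed replicate 1, where Nr1d1 could be tested and passed. Nr1d1 could also be tested without fasted replicate 1, where it did not pass (adjusted p = 0.0615 in edgeR). The replicate block, which was run for fasting and not for levels, changed no call of a clock gene. The glial sums had the fewest UMIs, and intervals there were up to several-fold wide.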

Other observations

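The fasted libraries stood above all fed libraries for 5 of 13 glucocorticoid-induced genes in astrocyte-like and for 7 of 13 in oligodendrocyte-like nuclei, with median log2 differences of 0.615 over the 6 genes tested and 1.35 over the 10 tested, and 0 passed in edgeR in either class. Over all genes tested the groups did not overlap, in either direction, in 18.5% and 20.6%. In the gated neuron classes 4 to 6 of the 13 did so, except in Calcrl neurons with 3 and Rarb neurons with 7, beside 16.6% to 23.3% of all genes tested. Mitochondrial UMIs were higher in the fasted libraries in both glial classes too, at 1723 to 3347 CPM in fed and 3698 to 4566 in fasted astrocyte-like nuclei, and at 1866 to 2941 and 3858 to 4671 in oligodendrocyte-like nuclei. Their part in these counts was not tested.

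The genes whose levels followed the mean of the 7 day-phase clock genes most closely were sought among 3804 other genes of at least 50 CPM, over 50 values (5 libraries in 10 classes, log2 levels centred within each class). The 8 nearest were Stx16 (Pearson's r = 0.494), Nsmaf (0.464), Gpr137c (0.458), Ddx6 (0.458), Dnajb6 (0.450), Btaf1 (0.448), Igsf8 (0.444) and Atp2c1 (0.444). None of the 21 further clock genes was among them. The values share libraries and their depths, and the correlations are given as a description.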
